A study of Mus musculus with 96 samples.

Results

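The transcripts described here are those of the mouse mitochondrial DNA (mtDNA), taken as every row of the deposited table whose gene name starts with mt-. They are 37 of 54150 rows and comprise the 13 mRNAs, the 2 ribosomal RNAs (rRNAs) and the 22 transfer RNAs (tRNAs) of the mitochondrial genome. All 13 mRNAs and both rRNAs passed the filter on low counts (some condition of the fit with 16 or more counts in each of its replicates). Only 5 of the 22 tRNAs passed it in any condition, so the mRNAs and rRNAs carry the results and tRNAs are given where they were counted.

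The 96 RNA-seq samples were of C2C12, a mouse myoblast cell line that fuses into myotubes in low serum, and fell into 35 conditions, 26 with 3 samples and 9 with 2. The question behind the design was how gene expression responds to inhibitors of respiration in different metabolic states. Piericidin (0.5 µM) blocks complex I, antimycin (0.5 µM) complex III and oligomycin (1 µM) ATP synthase, BAM15 (0.5 µM) uncouples respiration from ATP synthesis, chloramphenicol (20 µg/ml) stops the mitochondrial ribosome, and DMSO was the vehicle. Treatments lasted 10 hr, or 48 hr for chloramphenicol and its own DMSO control.

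Myoblasts were stable lentiviral lines that all received doxycycline (300 ng/ml) to induce luciferase (the control line), LbNOX (a bacterial NADH oxidase in the cytosol), mitoLbNOX (the same enzyme sent to mitochondria) or NDI1 (a yeast NADH dehydrogenase that bypasses complex I). Each transgene was represented by a single line, so line and transgene cannot be told apart. Post-mitotic cells had spent 1 day, and myotubes 4 days, in low serum, without a stable transgene. Some myotubes were transduced with adenovirus for GFP, or for GFP together with LbNOX, and some were kept in 5% oxygen from the night before treatment. The medium of the 10 hr treatments lacked pyruvate and uridine; chloramphenicol differs from the other agents in time and seeding density and was compared only with the 48 hr DMSO samples. Chloramphenicol was given together with uridine, a pyrimidine nucleoside; whether the 48 hr DMSO samples also had uridine is not given in the sources used here, so that effects of chloramphenicol and of uridine cannot be told apart. Where nothing in the labels says that replicates are separate cultures, p-values measure only the spread between these samples.

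The mammalian mitochondrial genome is transcribed from both strands into long precursors that hold many genes. The heavy-strand transcript carries the rRNAs first, then the mRNAs in a fixed order, whereas mt-Nd6 and a group of tRNAs are read from the light strand. Most mRNAs are flanked by tRNAs whose excision releases them, and the released mRNAs receive short poly(A) tails. Their products are core subunits of complexes I, III and IV and of ATP synthase, which assemble with nuclear-encoded subunits.

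Total counts per sample ran from 6458295 to 15366745, with a median of 10336588.5. The 37 mtDNA rows took 2.03% to 3.60% of all counts, and the 22 tRNAs together 0.000769% to 0.00297%. Luc, LbNOX and NDI1 counts appeared in the lines labelled for them and were 0 elsewhere, and eGFP counts were present in the GFP and LbNOX adenovirus myotubes. Levels are counts scaled to library size (CPM). The myotube markers Myog, Myh3, Myh8, Ckm, Acta1 and Tnnt3 summed to 9.11 to 93.4 CPM in myoblasts and 9566 to 13490 CPM in myotubes. Post-mitotic cells, at 10060 to 10850 CPM, lay within the myotube range. The 4 myoblast markers (Myf5, Myod1, Pax7 and Mki67) summed to 125 to 338 CPM in myoblasts. This range held those of post-mitotic cells (241 to 285 CPM) and myotubes (129 to 205 CPM). The sum of 8 markers of other cell types was 0.944 to 4.34 CPM in any sample. In the 10 hr DMSO myoblasts the control line had the highest mtDNA share, 2.87% to 3.60% against 2.17% to 2.65% in the other lines. All 3 of these control DMSO samples sat in outer wells of the plate; a fit with outer wells as a covariate is given where it bears on a count. In bulk RNA, less RNA per cell and fewer cells of a type cannot be told apart.

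Library preparation selected poly(A) RNA, and the ends of the mtDNA coding sequences bear on what can be captured. The last bases of 5 of them (GRCm38, chrM, heavy-strand order, + strand) are shown because 3 of the 5 stop before a full stop codon; capitals mark the last codon or the part of it that is encoded.
mt-Nd1 (chrM:3693-3707): ccaccatacataTAG
mt-Co1 (chrM:6858-6872): gtaaaagtaaaaTAA
mt-Co3 (chrM:9375-9390): tattgatgaggatctT
mt-Nd4 (chrM:11529-11544): acaggcctgacaataT
mt-Cytb (chrM:15273-15288): ctaaaattatatccaT
In mt-Co3, mt-Nd4 and mt-Cytb 1 base lies past the last full codon, and in such genes the added poly(A) tail supplies the rest of the stop codon. The light-strand mRNA mt-Nd6 ends opposite mt-Nd5, with 14 bases shared on opposite strands. Capitals again mark the last codon.
mt-Nd5 (chrM:13551-13565, + strand): attaatctcgagTAA
mt-Nd6 (chrM:13552-13566, − strand): attactcgagatTAA
The libraries do not record strand, so reads of mt-Nd6 and of the light-strand tRNAs cannot be told from antisense RNA of the other strand.

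Of the mRNAs, 7 have a near-identical nuclear copy in the annotation, and the authors' counting could split reads between the pair. Across the aligned bases the copies of mt-Atp6, mt-Co2, mt-Co3, mt-Nd4 and mt-Nd4l (Gm10925, Gm28661, Gm28437, Gm28439 and Gm10222) had 100% identity. The copies of mt-Co1 (99.793% over 483 bases) and mt-Nd3 (99.71% over 345 bases) differed at 1 base each, A1066T and T3C, counted from 1 at the gene's first base. These windows are shown because within the aligned bases gene and copy can be told apart only at that base, which is in capitals (mt-Co1 chrM:6390-6405 and mt-Nd3 chrM:9459-9473, GRCm38, + strand).
mt-Co1: ggaAttgttttatcca
Gm29216: ggaTttgttttatcca
mt-Nd3: atTaacctgtacact
Gm28438: atCaacctgtacact
For mt-Nd3, 38.3% to 76.8% (median 49.1%) of the counts of the pair were on the copy. For mt-Atp6 the copy took 0.218% to 40.9% (median 19.3%). The copy of mt-Nd4l took 0% to 100% with a median of 0%, and that of mt-Nd4 had 0% in every sample. Fold changes of mt-Nd3, mt-Nd4l and mt-Atp6 are therefore also given with the counts of gene and copy added. Further, mt-Atp8 and mt-Atp6 share 43 bases, and mt-Nd4l and mt-Nd4 share 7, so levels within these pairs are not fully separate.

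Before any treatment the mRNAs differed widely in level. Per kilobase (kb) of gene in control DMSO myoblasts, mt-Rnr2, the 16S rRNA, was highest at 12480 CPM per kb ± 1667 (SD, n = 3), although rRNA levels in poly(A)-selected libraries reflect only captured molecules. Among mRNAs the order was mt-Atp6 (3141 CPM per kb ± 482.5), mt-Nd1 (2077 ± 273.5), mt-Co3 (1568 ± 99.4) and mt-Co1 (1450 ± 138). The ranges of mt-Co3 and mt-Co1 over the 3 samples overlapped, as did those of mt-Cytb (811 CPM per kb ± 102) and mt-Co2 (795 ± 108). Below mt-Atp8 (555 CPM per kb) came mt-Nd3 (367) as counted, although with its copy added mt-Nd3 (697) lay above mt-Atp8. They were followed by mt-Nd5 (257), mt-Nd4 (256), mt-Nd2 (195), mt-Nd4l (104) and mt-Nd6 (60.2). The ranges of mt-Nd5 and mt-Nd4 overlapped as well.

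Antimycin in LbNOX myoblasts gave the largest falls. The mRNA of cytochrome b, mt-Cytb (chrM:14145-15288), the only mtDNA-encoded subunit of complex III and the site where antimycin binds, was at 781, 798 and 736 CPM in the DMSO samples and at 154, 139 and 146 CPM with antimycin. Its log2 fold change was -2.34 ± 0.09 (SE, n = 3 against 3, edgeR adjusted p = 3.49e-19), a level of 0.197 times that in DMSO. The complex I mRNA mt-Nd4 was at 285, 277 and 276 CPM in DMSO and at 65.3, 65.2 and 61.2 CPM with antimycin (-2.07 ± 0.09). No antimycin sample came near the DMSO range for either gene. The other distal complex I mRNA, mt-Nd5, moved from 378, 385 and 355 CPM to 93.6, 89.0 and 94.4 CPM (-1.96 ± 0.10). In contrast mt-Co1, the catalytic core of cytochrome c oxidase, was at 1869, 1919 and 1791 CPM in DMSO and at 1956, 1894 and 2020 CPM with antimycin, and these ranges overlapped.

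By role, 6 of the 7 complex I mRNAs fell in this comparison, mt-Nd1 by 0.26 and mt-Nd2 by 1.07 on the log2 scale, and the more distal ones by more. For mt-Nd3 the fold change was -3.13 ± 0.25, and -2.57 ± 0.15 with its copy added, where the summed level went from 205, 187 and 210 CPM to 35.2, 32.2 and 31.0 CPM. For mt-Nd4l, listed at 0 counts in 2 of the 3 antimycin samples, the fit gave -3.89 ± 0.65 and, with the copy added, -2.65 ± 0.19 (30.3, 23.9 and 28.1 CPM in DMSO against 4.45, 2.83 and 5.28 CPM). Both genes were called lower with either way of counting. Both ATP synthase mRNAs fell, mt-Atp8 by 1.51 and mt-Atp6 by 1.37 (1.28 with its copy added). Of the cytochrome c oxidase mRNAs, mt-Co3 fell by 0.75 whereas mt-Co1 (0.13 ± 0.08) and mt-Co2 (0.07 ± 0.09) were not called, although mt-Co1 passed as higher with its copy added (0.22, edgeR adjusted p = 0.0184). In all, 0 of 13 mRNAs rose and 10 fell, where 46.1% of all genes tested were called (23.3% higher and 22.9% lower). The median log2 fold change of the mRNAs was -1.37, against 0.03 over all genes tested.

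The control and mitoLbNOX lines shared part of this response. In control myoblasts mt-Cytb was at 1054, 906 and 825 CPM in DMSO and at 735, 695 and 638 CPM with antimycin (-0.39 ± 0.08). In mitoLbNOX myoblasts it was at 1118, 965 and 914 CPM and at 544, 525 and 455 CPM (-0.96 ± 0.08). The groups did not overlap in either line, and the mitoLbNOX fold change lay between those of the other lines. Antimycin was followed in control myoblasts by higher mt-Co1 (0.30 ± 0.08) and mt-Co2 (0.38 ± 0.09) and by lower levels of 10 mRNAs, among them mt-Nd5 (-0.92 ± 0.09), mt-Nd4 (-0.78 ± 0.09), mt-Atp6 (-0.60 ± 0.15, and -0.60 with its copy added) and mt-Atp8 (-0.59 ± 0.09); here 63.2% of all genes were called (32.1% higher, 31.1% lower). The fall of mt-Nd4l in this line was 2.14 on the log2 scale as counted and 0.80 with its copy added. In mitoLbNOX myoblasts 2 mRNAs were higher (mt-Co1 by 0.50, mt-Co2 by 0.43) and 9 lower, led by mt-Nd4l (-1.70 ± 0.50; -1.12 with the copy added) and mt-Nd5 (-1.19 ± 0.09), where 47.7% of all genes were called (24.8% higher, 22.9% lower). With copies added mt-Atp6 was called lower there as well (-0.41 ± 0.06).

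These directions depend on the scaling in 1 respect. The main scaling (TMM) sets the bulk of genes at no change; with library totals alone the median member moved by -0.297 in the control, -0.126 in the LbNOX and -0.13 in the mitoLbNOX line on the log2 scale. The counts then became 0 higher and 11 lower in control, 0 and 10 in LbNOX and 2 and 11 in mitoLbNOX myoblasts, so the higher calls of mt-Co1 and mt-Co2 in control myoblasts hold relative to other genes only. With outer wells as a covariate they were 2 higher and 9 lower in control, 0 and 10 in LbNOX, and 2 and 9 in mitoLbNOX myoblasts.

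**Figure D1:**
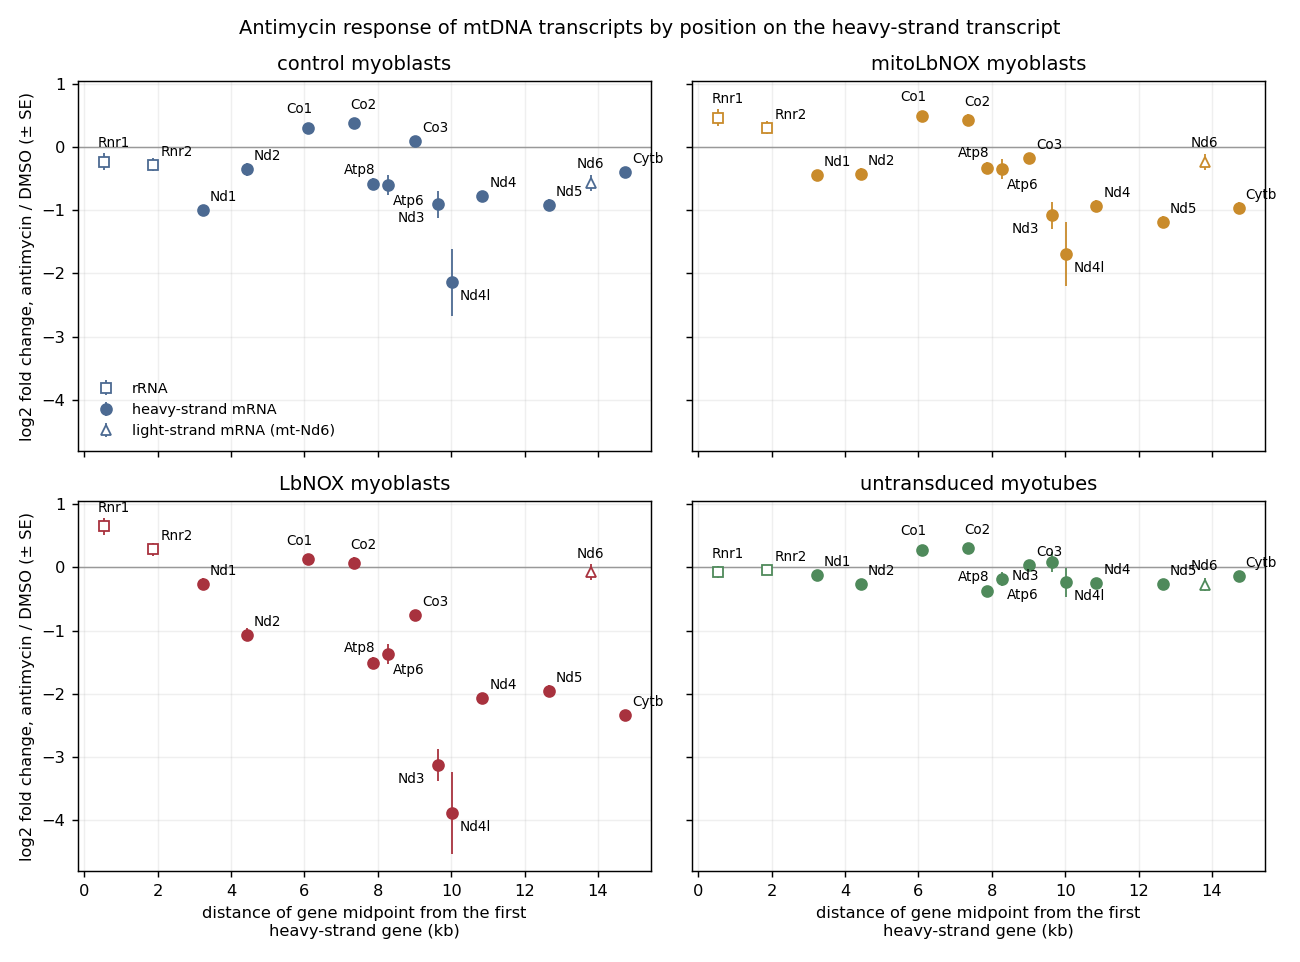
Log2 fold change of antimycin over DMSO (y axis, ± SE) of each rRNA (squares), heavy-strand mRNA (circles) and mt-Nd6 (triangle) against the distance of the gene's midpoint from the first heavy-strand gene (x axis, kb), in the 3 myoblast lines and in untransduced myotubes (3 samples a group). In LbNOX myoblasts the value is -0.26 at mt-Nd1, lowest at mt-Nd3 (-3.13) and mt-Nd4l (-3.89, both as counted without their copies) and -2.34 at mt-Cytb, with mt-Co1, mt-Co2 and mt-Co3 above their neighbours; in myotubes all values lie between -0.38 and 0.30.

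Read along the heavy strand, the antimycin fold changes tended to be lower with distance in the LbNOX line. The 12 heavy-strand mRNAs span gene midpoints from 3.23 kb (mt-Nd1) to 14.72 kb (mt-Cytb) after the first heavy-strand gene. Across these 12 genes, Spearman's rho between distance and log2 fold change was -0.769 in LbNOX, -0.636 in mitoLbNOX and -0.315 in control myoblasts, with slopes of -0.236, -0.112 and -0.043 log2 units per kb. With copies added rho was -0.769, -0.622 and -0.287. These are descriptions across genes that share precursors, libraries and, in part, sequence, and genes are not independent replicates. The mRNAs of cytochrome c oxidase stood above their neighbours in each line, for example mt-Co3 (9.0 kb, -0.75) between mt-Atp6 (8.27 kb, -1.37) and mt-Nd3 (9.63 kb, -3.13) in LbNOX myoblasts, or -0.77 between -1.28 and -2.57 with copies added. Antimycin in untransduced myotubes gave a rho of -0.259 and a slope of -0.015. BAM15 (-0.035), 5% oxygen (-0.168) and piericidin in control myoblasts (0.091) had rho values nearer 0. Oligomycin had a rho of -0.336 in control myoblasts and of -0.431 in both LbNOX myoblasts and post-mitotic cells, and NDI1 against control myoblasts in DMSO one of -0.699, with slopes of -0.009, -0.019, -0.009 and -0.03 log2 units per kb. Antimycin against piericidin in control myoblasts had a rho of -0.685. The rho of antimycin in control and in mitoLbNOX myoblasts thus lay among those of other comparisons. With copies added NDI1 against control myoblasts had a rho of -0.762, close to the -0.769 of antimycin in LbNOX myoblasts. The slopes were -0.032 and -0.22 log2 units per kb, so these 2 comparisons differed in slope rather than in rho.

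Ratios within a sample need no scaling between samples. Per length, mt-Cytb was at 0.555 to 0.564 of mt-Co1 in LbNOX DMSO samples and at 0.0973 to 0.106 with antimycin. In control myoblasts the ratio was 0.533 to 0.588 in DMSO and 0.321 to 0.374 with antimycin. In mitoLbNOX myoblasts it was 0.636 to 0.668 and 0.235 to 0.244. The DMSO and antimycin ranges were apart in all 3 lines. The ratio of mt-Nd5 to its neighbour mt-Nd6 was 3.82 to 4.59 in LbNOX DMSO samples and 1.02 to 1.27 with antimycin. It was 3.92 to 4.87 and 2.10 to 2.29 in mitoLbNOX myoblasts, and 4.08 to 4.38 and 3.22 to 3.43 in control myoblasts, again with no overlap. Because strand was not recorded, this ratio compares reads at neighbouring genes and not the strands themselves.

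The rRNAs at the start of the heavy strand and the RNAs of the light strand were called higher or not called in LbNOX myoblasts. The 12S rRNA mt-Rnr1 was at 295, 207 and 297 CPM in DMSO and at 416, 398 and 391 CPM with antimycin (0.65 ± 0.13, edgeR adjusted p = 0.000145). The 16S rRNA mt-Rnr2 was higher by 0.29 ± 0.10. The light-strand mRNA mt-Nd6 was at 23.9, 23.9 and 26.4 CPM and at 21.8, 24.8 and 21.2 CPM, with overlapping ranges (-0.08 ± 0.12, adjusted p = 0.635). In mitoLbNOX myoblasts mt-Rnr1 (0.47 ± 0.13) and mt-Rnr2 (0.30 ± 0.10) also rose. In control myoblasts mt-Rnr2 fell by 0.28 and mt-Nd6 by 0.57.

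Among tRNAs, mt-Ts1, the light-strand gene for a serine tRNA that overlaps the end of mt-Co1 by 3 bases, was counted in every condition. It rose with antimycin from 6.14, 5.99 and 3.91 CPM to 10.4, 13.1 and 16.1 CPM in LbNOX myoblasts (1.35 ± 0.21), and by 1.28 in control and 1.17 in mitoLbNOX myoblasts. The light-strand genes mt-Ta and mt-Ty were higher in LbNOX myoblasts as well, by 1.21 and 1.75. The fold change of mt-Tq (3.07 ± 0.58) rests on 2.40, 1.89 and 1.83 CPM, and that gene passed the filter only through this condition, so its difference follows from how it was kept. The heavy-strand tRNA mt-Tl1, which separates mt-Rnr2 from mt-Nd1, fell by 1.17 in control, 0.96 in LbNOX and 0.95 in mitoLbNOX myoblasts. Median counts over all samples were 10 for mt-Tl1, 12 for mt-Ta and 11 for mt-Ty, below the filter. The gene mt-Tl1 passed in the DMSO but not the antimycin group of each line. In LbNOX myoblasts mt-Ta passed in the antimycin but not the DMSO group. Part of these differences may follow from how the genes were kept.

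**Figure D2:**
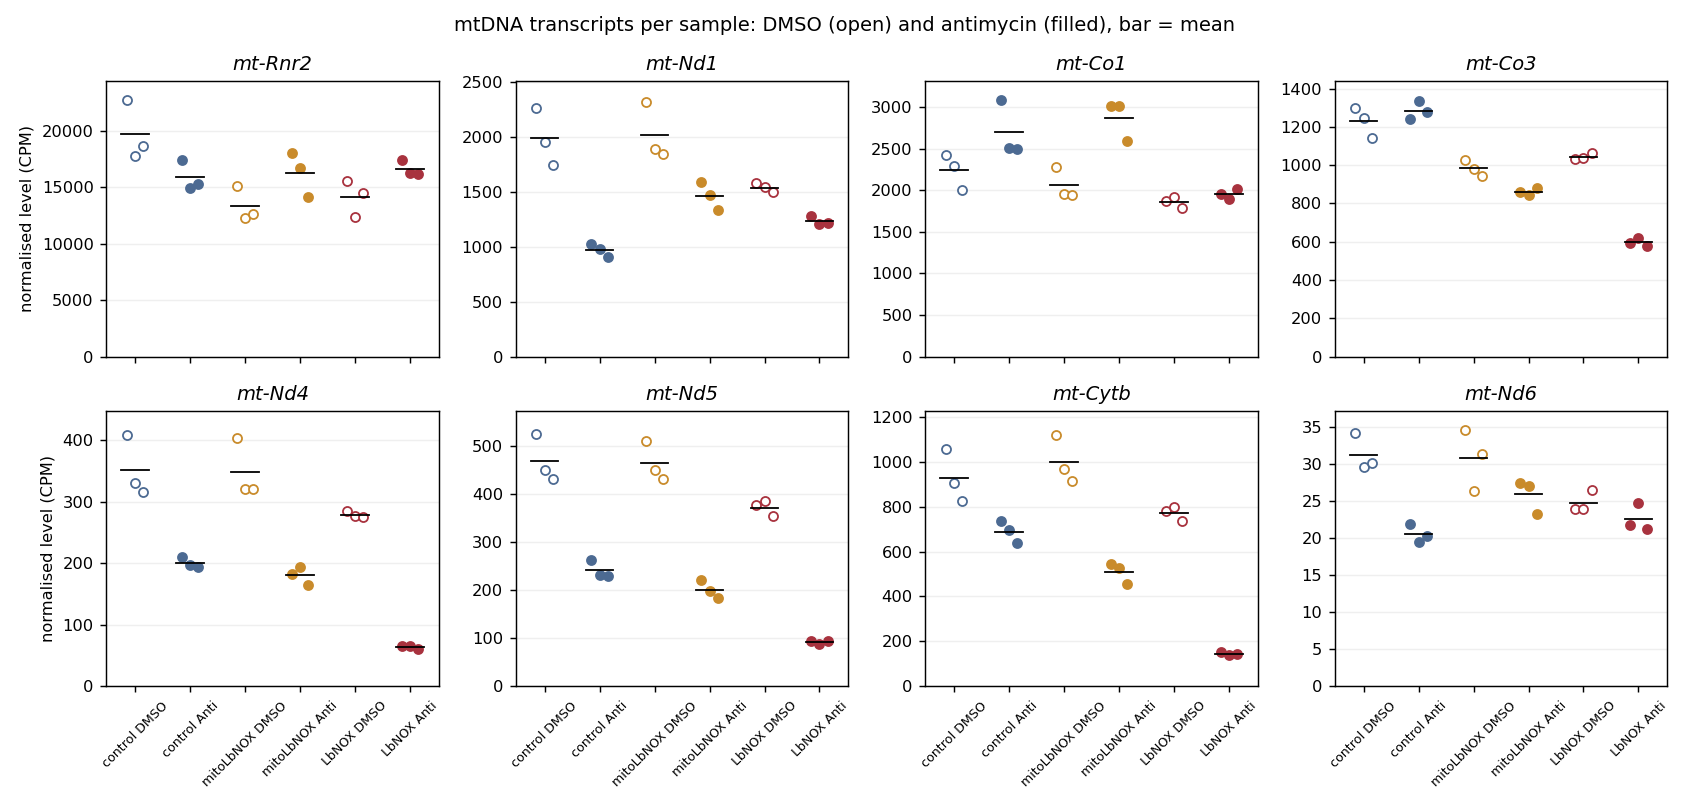
Normalised levels (CPM, y axis from 0) of 8 mtDNA transcripts in each of 3 samples per group, for DMSO (open circles) and antimycin (filled circles) in control, mitoLbNOX and LbNOX myoblasts, with the mean as a bar. The LbNOX antimycin samples are apart from their DMSO samples for mt-Nd4, mt-Nd5 and mt-Cytb, whereas the ranges of mt-Co1 and mt-Nd6 overlap.

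The difference between lines was tested directly as the antimycin response in LbNOX minus that in control myoblasts. It was lower for 9 mRNAs and higher for 2, where 51.5% of all genes were called (24.7% higher, 26.8% lower). The largest lower differences that were called were those of mt-Nd3 (-2.23 ± 0.32, or -1.82 with its copy added), mt-Cytb (-1.95 ± 0.12, edgeR adjusted p = 2.24e-14), mt-Nd4 (-1.29 ± 0.12) and mt-Nd5 (-1.04 ± 0.13). For mt-Nd4l the difference was -1.75 ± 0.89 as counted, which was not called, and -1.85 ± 0.25 with its copy added, which was. The higher differences were those of mt-Nd1 (0.74 ± 0.12) and mt-Nd6 (0.49 ± 0.17), and both rRNAs were higher too (mt-Rnr1 by 0.88, mt-Rnr2 by 0.56). For mitoLbNOX minus control, 3 mRNAs were called among 31.7% of all genes: mt-Nd1 was higher by 0.56, and mt-Cytb (-0.57 ± 0.12) and mt-Co3 (-0.28 ± 0.08) were lower. The count was 5 with library totals and 6 with no filter on low counts.

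Most nuclear genes for subunits of the respiratory chain and ATP synthase were higher with antimycin in LbNOX myoblasts. Their list includes the 4 subunits of complex II, all of them nuclear-encoded. Of 78 nuclear-encoded OXPHOS subunits tested there, 59 were higher and 1 lower, where 23.3% of all genes were higher and 22.9% lower, with a median log2 fold change of 0.29 against 0.03 over all genes. In control myoblasts 23 were higher and 19 lower, a smaller share than the 63.2% of all genes called. Of 73 nuclear genes for mtDNA transcription, RNA processing, RNA stability, replication and nucleotide supply, 19 were higher and 16 lower in LbNOX myoblasts with antimycin, a share near the 46.1% of all genes. Those with the largest changes were Tfb1m (-2.09 ± 0.29), the methyltransferase of the 12S rRNA, Primpol (-1.12 ± 0.39), a primase-polymerase, Elac2 (1.01 ± 0.38), which cuts tRNA 3′ ends, and Fastkd1 (-0.99 ± 0.21), of a family of mitochondrial RNA-binding proteins. In control myoblasts antimycin left 30 higher and 17 lower, near the 63.2% of all genes, led by Dna2 (-2.89 ± 0.23), a nuclease-helicase of DNA replication, and Slc25a33 (2.88 ± 0.17), a mitochondrial pyrimidine nucleotide carrier.

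Piericidin and antimycin in control myoblasts shared a fall of mt-Nd1 (chrM:2751-3707), which encodes the membrane-arm subunit of complex I next to the ubiquinone site. Its level was 2265, 1956 and 1743 CPM in DMSO, 1093, 1002 and 925 CPM with piericidin, and 1024, 974 and 902 CPM with antimycin. Oligomycin samples were at 2431, 2094 and 2116 CPM, within or above the DMSO range, and both other inhibitors were below it. The log2 fold changes were -0.94 ± 0.09 (edgeR adjusted p = 8.18e-11) for piericidin, -1.003 ± 0.086 (1.89e-11) for antimycin and 0.17 ± 0.09 (not called) for oligomycin. The 3 comparisons share their DMSO samples.

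With piericidin 0 mRNAs rose and 7 fell, where 61.7% of all genes were called (30.9% higher, 30.8% lower). All but 1 of those that fell encode complex I subunits: mt-Nd2 (-0.49 ± 0.10), mt-Nd3 (-0.68 ± 0.21, or -0.605 with its copy added), mt-Nd4 (-0.44 ± 0.09), mt-Nd5 (-0.39 ± 0.09) and mt-Nd6 (-0.28 ± 0.12) besides mt-Nd1; the other was mt-Atp8 (-0.23 ± 0.09). With copies added mt-Atp6, the other ATP synthase mRNA, was called lower too (-0.325 ± 0.056, against -0.35 ± 0.15 as counted, not called). The mRNAs of complex III and IV were not called (mt-Cytb -0.12, mt-Co1 -0.02, mt-Co2 0.13, mt-Co3 0.09). With outer wells as a covariate 6 fell, and with library totals 11. Directly compared with piericidin, antimycin left 2 mRNAs higher (mt-Co1 by 0.33, mt-Co2 by 0.25) and 5 lower, among 37.2% of all genes called. The lower ones included mt-Nd5 (-0.53 ± 0.09) and mt-Nd4l, at -1.90 ± 0.54 as counted and -0.45 ± 0.16 with its copy added, so that which of them led depended on the counting. With copies added mt-Atp6 was lower as well (-0.28 ± 0.06). This comparison uses no DMSO sample.

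Oligomycin in control myoblasts was set apart by mt-Co3 (chrM:8607-9390), a core subunit of cytochrome c oxidase. It was at 1297, 1247 and 1144 CPM in DMSO and at 870, 814 and 821 CPM with oligomycin (-0.54 ± 0.06, edgeR adjusted p = 2.89e-09), with no overlap. With piericidin mt-Co3 was at 1352, 1262 and 1206 CPM. The other mRNA called was mt-Nd6, which was higher by 0.33, where 50.8% of all genes were called (24.5% higher, 26.3% lower); both rRNAs fell (mt-Rnr1 by 0.34, mt-Rnr2 by 0.28). With its copy added mt-Atp6 was called higher (0.16 ± 0.06, against 0.00 as counted). The number of mRNAs called was 4 with outer wells as a covariate, 1 with library totals, 4 without replicate 1 and 1 without replicate 2 or 3. Against oligomycin, antimycin left 3 mRNAs higher and 10 lower among 50% of all genes called, and piericidin 1 higher and 7 lower among 39.2%; the higher ones included mt-Co3 in both (0.64 and 0.63). In LbNOX myoblasts oligomycin also lowered mt-Co3 (-0.23 ± 0.06) and raised mt-Nd1 (0.35 ± 0.09) and mt-Co1 (0.28 ± 0.08), among 35.2% of all genes called. With copies added mt-Atp6 (0.20) and mt-Nd3 (0.35) were called higher as well. As counted mt-Atp6 was not called and its mean level was lower with oligomycin, so its direction depended on how the pair was counted. Without replicate 2 a single mRNA was called. The fall of mt-Co3 was smaller in LbNOX than in control myoblasts, by 0.31 ± 0.08, and no other mRNA was called among 7.98% of all genes. Without replicate 2 there were 0 calls, and with no filter on low counts 4.

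In the transgene lines piericidin gave 3 calls or fewer, a number that depended on the count filter. In LbNOX myoblasts mt-Nd1 was at 1576, 1540 and 1494 CPM in DMSO and at 1258, 1303 and 1236 CPM with piericidin (-0.27 ± 0.09). Here 1 mRNA was higher (mt-Co1, 0.27) and 2 lower (mt-Nd1 and mt-Nd2, -0.44) among 8.87% of all genes called. In mitoLbNOX myoblasts only mt-Nd2 was called (-0.33 ± 0.10) among 11.2%; there were 0 calls with outer wells as a covariate and also without replicate 2 or without replicate 3. In LbNOX myoblasts the calls were 1 without replicate 2 and 0 without replicate 3. In NDI1 myoblasts (2 samples a group) edgeR called 0 of 13 among 0.00835% of all genes, 4 had an unadjusted p under 0.05, and DESeq2 called 0. With no filter on low counts the calls were 6 in LbNOX, 5 in mitoLbNOX and 6 in NDI1 myoblasts, against 9 in control myoblasts.

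Tested as interactions, the piericidin response of mt-Nd1 was higher than in control myoblasts by 0.67 ± 0.12 in LbNOX, 0.79 ± 0.12 in mitoLbNOX and 0.77 ± 0.14 in NDI1 myoblasts. All 3 share the control samples. The interaction counts were 2 higher in LbNOX (44.3% of all genes called), 4 higher in mitoLbNOX (42.8%) and 1 higher with 1 lower in NDI1 (42.7%). Besides mt-Nd1 the calls were mt-Co1 (0.29) in LbNOX, mt-Nd3 (0.75, or 0.56 with its copy added), mt-Nd5 and mt-Nd6 in mitoLbNOX, and mt-Co2 (-0.34) in NDI1 myoblasts. With copies added the calls of mt-Atp6 (0.28), mt-Nd3 (0.59) and mt-Nd6 were gained in LbNOX, that of mt-Atp6 (0.23) in mitoLbNOX and that of mt-Nd3 (0.605) in NDI1 myoblasts, where mt-Co2 was no longer called. With library totals the calls were 6, 10 and 7, all higher, and with no filter on low counts they were 5 in LbNOX and 4 in NDI1 myoblasts. Without replicate 2 the LbNOX and mitoLbNOX interactions had 1 call each, as had those of mitoLbNOX and NDI1 without replicate 3.

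Without inhibitor, the mRNAs were lower in the transgene lines than in control myoblasts where they were called at all. The calls were 4 lower in LbNOX (2.68% of all genes called), 1 lower in mitoLbNOX (1.77%) and 6 lower in NDI1 (4.61%). The largest were mt-Nd6 (-0.72 ± 0.14), mt-Nd5 (-0.57 ± 0.10) and mt-Nd4 (-0.54 ± 0.10) in NDI1 myoblasts, and mt-Nd1 (-0.37 ± 0.09) in LbNOX myoblasts; mt-Co3 was lower in all 3 lines, by 0.23, 0.32 and 0.47. With copies added mt-Atp6 was lower in LbNOX (-0.26) and NDI1 (-0.29) and mt-Nd3 in NDI1 myoblasts (-0.55), and mt-Nd5 was no longer called in LbNOX myoblasts. Each count rests on the same 3 control DMSO samples, whose mtDNA share was the highest among DMSO myoblasts and which all sat in outer wells. With outer wells as a covariate the calls were 3, 1 and 6, all lower. Leaving out 1 replicate number at a time left 0 to 2 calls for LbNOX, the fewest without replicate 2. For NDI1 (2 samples a group) leaving out replicate 1 or 2 leaves 1 sample, so its count cannot be checked in that way. With no filter on low counts the calls were instead 10 for LbNOX, 3 for mitoLbNOX and 11 for NDI1, all lower.

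Chloramphenicol for 48 hr changed the mRNAs in opposite directions. In control myoblasts mt-Co1 was at 2327 and 2302 CPM in DMSO and at 1265 and 1387 CPM with chloramphenicol (-0.76 ± 0.07, n = 2 against 2, edgeR adjusted p = 0.0004). The complex I mRNA mt-Nd3 was at 90.2 and 91.2 CPM and at 259 and 222 CPM (1.45 ± 0.09, adjusted p = 2.8e-05), and mt-Nd2 was at 164 and 196 CPM and at 337 and 304 CPM (0.88 ± 0.09). No pair of groups overlapped. Also higher were mt-Atp8 (0.59), mt-Nd1 (0.43), mt-Cytb (0.39) and mt-Nd4 (0.31), which made 6 higher and 1 lower where 8.45% of all genes were called (4.83% higher, 3.62% lower); with library totals the split was 4 and 2. With copies added, mt-Nd3 was higher by 1.40 ± 0.14, and mt-Atp6 (0.42) and mt-Nd4l (0.73) were called higher too.

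In LbNOX myoblasts mt-Co1 was at 2244 and 1918 CPM in DMSO and at 1263 and 1222 CPM with chloramphenicol (-0.74 ± 0.07). There 4 mRNAs were higher (mt-Nd2 by 0.72, mt-Nd3 by 0.73, mt-Nd1 and mt-Cytb by 0.43) and 2 lower (mt-Co1 and mt-Co3, -0.58) among 0.931% of all genes called (0.675% higher, 0.256% lower). With copies added mt-Nd3 was higher by 0.92 and mt-Atp6 (0.365) was called higher too. With no filter on low counts the calls were 8 higher and 2 lower. Leaving out a sample here leaves 1 in its group, so the count cannot be checked in that way. The per-length ratio of mt-Cytb to mt-Co1 was 0.515 to 0.573 in control DMSO and 1.18 to 1.23 in control chloramphenicol samples. In the LbNOX line it was 0.501 to 0.518 and 1.13 to 1.16, so that mt-Cytb went from below to above mt-Co1 in both lines. edgeR called no mRNA for the difference between lines (0 of 13 among 0.53% of all genes), although 3 had an unadjusted p under 0.05, DESeq2 called 2, and so did edgeR with no filter on low counts or with outer wells as a covariate.

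**Figure D3:**
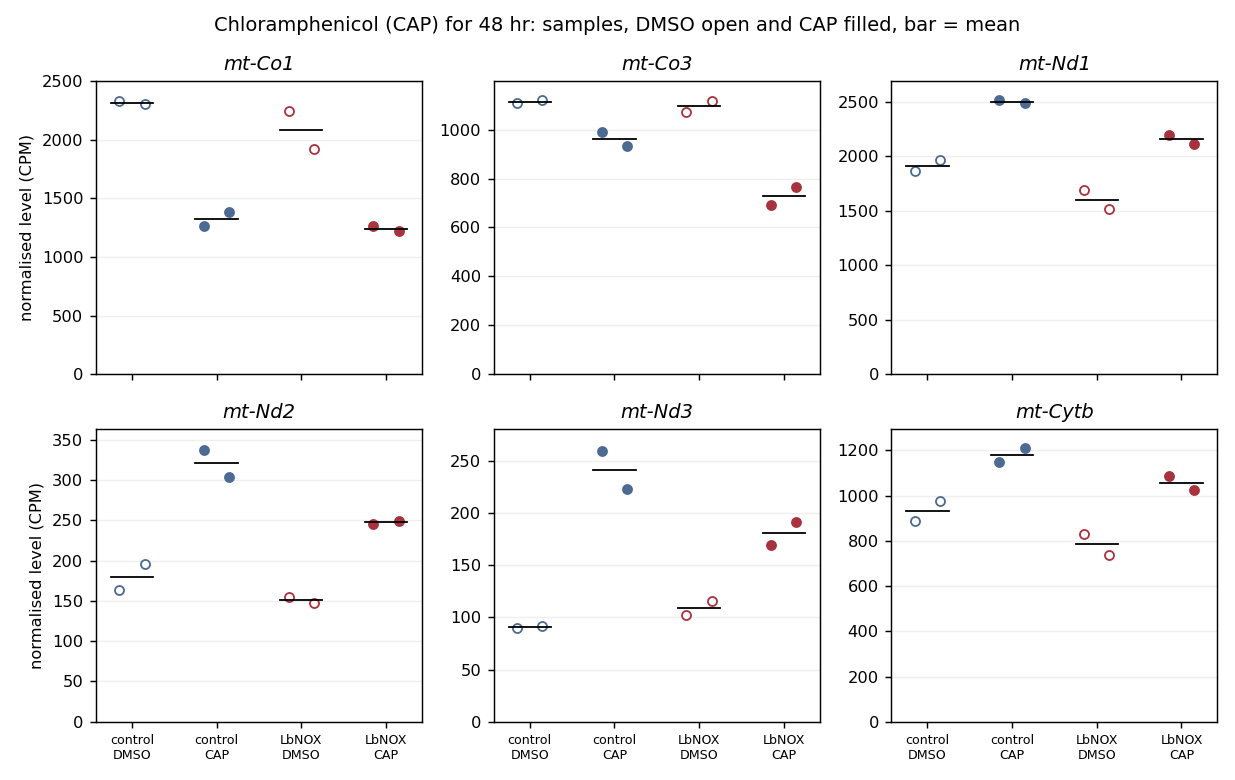
Normalised levels (CPM, y axis from 0) of 6 mtDNA mRNAs after 48 hr of DMSO (open) or chloramphenicol (CAP, filled) in control and LbNOX myoblasts, 2 samples a group, with the mean as a bar. The chloramphenicol samples lie below DMSO for mt-Co1 and above it for mt-Nd1, mt-Nd2, mt-Nd3 and mt-Cytb in both lines.

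In untransduced myotubes the uncoupler BAM15 lowered 10 mRNAs and 5% oxygen 7, mt-Nd1 among both, with the same DMSO samples as reference. The level of mt-Nd1 was 1730, 1922 and 1770 CPM in DMSO, 861, 785 and 798 CPM with BAM15 and 1124, 1059 and 1100 CPM in 5% oxygen. Both treated groups lay wholly below DMSO, BAM15 the lowest. The log2 fold changes were -1.09 ± 0.05 (edgeR adjusted p = 1.1e-14) and -0.67 ± 0.05.

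BAM15 left 0 mRNAs higher and 10 lower, where 25.4% of all genes were called (13.2% higher, 12.2% lower). All 7 complex I mRNAs fell, mt-Nd2 by 0.70, mt-Nd3 by 0.69, mt-Nd4l by 0.73, mt-Nd4 by 0.67, mt-Nd5 by 0.64 and mt-Nd6 by 0.65 besides mt-Nd1. The light-strand mRNA mt-Nd6 was thus among those that fell. Falls of mt-Cytb (0.58), mt-Atp8 (0.45) and mt-Atp6 (0.39) were also called. With copies added the fold changes of mt-Nd3, mt-Nd4l and mt-Atp6 were -0.95 ± 0.13, -0.68 ± 0.10 and -0.34 ± 0.04. The cytochrome c oxidase mRNAs were not called (mt-Co1 -0.11 ± 0.05, mt-Co2 0.06 ± 0.04, mt-Co3 -0.12 ± 0.07), nor were mt-Rnr1 (0.00) and mt-Rnr2 (0.02).

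In 5% oxygen mt-Co2 was higher (0.22 ± 0.04) and 7 mRNAs were lower, where 22.1% of all genes were called (12.3% higher, 9.78% lower). After mt-Nd1 the falls were those of mt-Nd4 (0.41), mt-Nd5 (0.38), mt-Atp8 (0.37), mt-Atp6 (0.35, or 0.29 with its copy added), mt-Nd2 (0.32) and mt-Cytb (0.26). With copies added mt-Nd3 (-0.67 ± 0.13, as low as mt-Nd1) and mt-Nd4l (-0.48 ± 0.10) were also called lower. Of the nuclear mtDNA expression genes tested in myotubes (71), BAM15 left 3 higher and 9 lower, with Atad3a (-1.70), an inner-membrane ATPase linked to mtDNA maintenance, Elac2 (-1.30) and Polg (-1.09), the mtDNA polymerase, among the latter; 5% oxygen left 8 higher and 1 lower. Of 80 nuclear OXPHOS subunits 3 were higher and 4 lower with BAM15, and 2 higher and 15 lower in 5% oxygen. These shares lay below those of all genes (25.4% with BAM15 and 22.1% in 5% oxygen); the 15 of 80 subunits lower in 5% oxygen stand beside 9.78% of all genes lower.

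**Figure D4:**
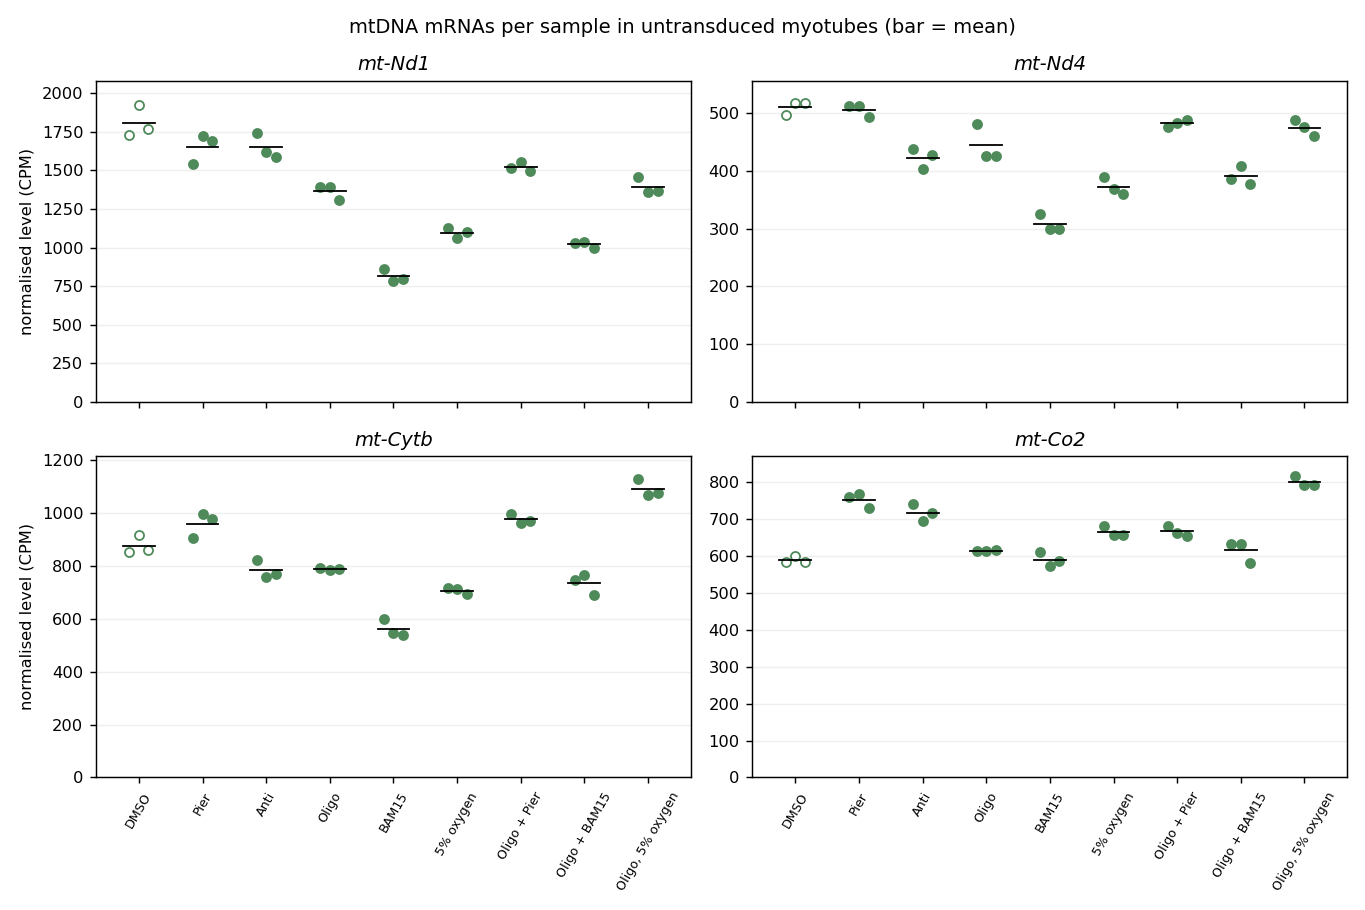
Normalised levels (CPM, y axis from 0) of 4 mtDNA mRNAs in each of 3 samples per condition in untransduced myotubes, with the mean as a bar; DMSO is open. BAM15 samples are lowest for mt-Nd1, mt-Nd4 and mt-Cytb, and mt-Co2 with BAM15 lies near DMSO.

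The respiratory inhibitors were also given to untransduced myotubes. Piericidin left mt-Co2 (0.37), mt-Co1 (0.34), mt-Co3 (0.30) and mt-Cytb (0.15) higher and mt-Nd2 (-0.41) lower, among 8.99% of all genes called; these 5 calls became 3 without replicate 1 and 3 without replicate 2. Antimycin left mt-Co1 (0.28) and mt-Co2 (0.30) higher and mt-Atp8 (-0.38 ± 0.08), mt-Nd5 (-0.27), mt-Nd2 (-0.26), mt-Nd4 (-0.25) and mt-Cytb (-0.14) lower, among 12.9% (6.64% higher, 6.27% lower), and with copies added mt-Atp6 was lower as well (-0.25 ± 0.04). Without replicate 2 the antimycin calls were 3. With antimycin mt-Cytb was at 823, 758 and 770 CPM in myotubes against 852, 918 and 859 CPM in DMSO, a fall of 0.14 on the log2 scale. Oligomycin left mt-Co1 and mt-Co2 higher by 0.17 and 0.10 and 9 lower, among 33.3% (16.9% higher, 16.4% lower). The lower ones included mt-Nd6 (-0.45 ± 0.10), mt-Nd1 (-0.37 ± 0.05) and mt-Atp6, at -0.49 ± 0.11 as counted and -0.23 ± 0.04 with its copy added. The call of mt-Co1 was lost with copies added (0.14), and without replicate 2 or 3 the calls were 6.

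Agents added to oligomycin were compared with oligomycin alone. Piericidin with oligomycin left 8 mRNAs higher and 1 lower (20.9% of all genes called), among them mt-Nd6 (0.50 ± 0.10), mt-Co3 (0.33), mt-Cytb (0.31 ± 0.04) and mt-Atp6 (0.33, or 0.18 with its copy added). These 9 calls became 5 with outer wells as a covariate, 4 without replicate 2 and 5 without replicate 3. BAM15 with oligomycin left mt-Nd6 (0.40) and mt-Co3 (0.21) higher and mt-Nd1 (-0.39) and mt-Nd4 (-0.16) lower (26.1%). Oligomycin in 5% oxygen left 9 higher and 0 lower (33.3%), with mt-Co3 (0.55 ± 0.07) and mt-Cytb (0.49 ± 0.04) first. Against 5% oxygen alone it also left 9 higher and 0 lower, where only 4.26% of all genes were called; mt-Cytb rose from 715, 712 and 694 CPM to 1128, 1070 and 1076 CPM (0.63 ± 0.04, edgeR adjusted p = 3.1e-10). Without replicate 2 the count against 5% oxygen alone was 4. Oligomycin in ambient oxygen lowered mt-Cytb (by 0.11), so its direction differed between the oxygen settings; this difference itself was not tested.

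In adenovirus-transduced myotubes each inhibitor gave 3 or 4 calls. Piericidin left 1 mRNA higher and 2 lower with GFP (3.09% of all genes called) and 2 higher and 1 lower with LbNOX (6.78%), and mt-Nd2 was lower in both (-0.59 ± 0.10 and -0.53 ± 0.08). The other calls were mt-Nd1 (-0.27) and mt-Co1 (0.25) with GFP and mt-Co2 (0.21) and mt-Co3 (0.20) with LbNOX. With no filter on low counts piericidin gave 7 calls with GFP and 6 with LbNOX. With GFP there were 0 calls with the comparison fitted alone. Leaving out replicate 1 or 2 leaves 1 sample in each GFP group, so the GFP counts cannot be checked in that way. With LbNOX piericidin gave 1 call without replicate 1 or without replicate 2. Oligomycin left 2 higher and 2 lower with GFP (25.9%) and 1 higher and 3 lower with LbNOX (32%), with mt-Co1 higher in both (0.40 and 0.24). The oligomycin count with LbNOX was 2 without replicate 1 and also without replicate 3. For mt-Atp6 with oligomycin and GFP the fold change was -0.36, and 0.12 with its copy added, so that its direction depended on how the pair was counted. For the difference between LbNOX and GFP edgeR called 0 of 13 for each agent, among 0% of all genes (3 and 2 with an unadjusted p under 0.05; 0 and 0 in DESeq2). With no filter on low counts edgeR called 2 for piericidin and 1 for oligomycin.

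In post-mitotic cells oligomycin was followed by higher levels of several mRNAs. With piericidin edgeR called mt-Nd1 alone (-0.27 ± 0.05), among 2.75% of all genes. This call was lost on leaving out any of the 3 replicates (0 calls each), whereas DESeq2 called 5 and edgeR with no filter on low counts 7. With oligomycin 5 mRNAs were higher and 0 lower among 20.7%: mt-Nd2 (0.42), mt-Co2 (0.38), mt-Atp8 (0.35), mt-Co1 (0.34) and mt-Co3 (0.21). With copies added mt-Atp6 (0.31) and mt-Nd3 (0.385) were called higher too. The oligomycin count was 8 without replicate 1 and 2 without replicate 3, all higher. The summed level of 6 nuclear RNAs without poly(A) tails, mostly Rn7sk, was 8.62 to 10.7 CPM in the DMSO samples of these cells, 10.01 to 15.9 CPM with oligomycin and 3.345 to 5.45 CPM with piericidin, against 1.03 to 4.12 CPM in myoblasts and 1.59 to 5.89 CPM in myotubes. Its part in the differences of post-mitotic cells was not tested.

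The balance of the mRNAs differed between myoblasts, post-mitotic cells and myotubes. In DMSO, myotubes had higher mt-Nd6 (0.71 ± 0.12), mt-Nd4 (0.54 ± 0.08), mt-Nd5 (0.48 ± 0.08) and mt-Co3 (0.29 ± 0.07) than control myoblasts and lower mt-Nd3 (-0.60, or -0.47 with its copy added), mt-Atp8 (-0.54), mt-Atp6 (-0.43, or -0.55) and mt-Nd2 (-0.26). These are 4 in each direction where 69.4% of all genes were called (35.7% higher, 33.7% lower). Post-mitotic cells had 7 mRNAs lower than control myoblasts and 0 higher (63.6%), namely mt-Atp6 (-0.94, or -0.79 with its copy added), mt-Atp8 (-0.82), mt-Cytb (-0.48), mt-Nd1 (-0.41), mt-Co1 (-0.36), mt-Nd2 (-0.34) and mt-Co2 (-0.33), and both rRNAs lower (mt-Rnr1 by 0.47, mt-Rnr2 by 0.63). The RNAs without poly(A) tails were higher in these post-mitotic DMSO samples (8.62 to 10.7 CPM) than in those of myotubes (2.67 to 5.07 CPM) and control myoblasts (at most 2.57 CPM). Myotubes had 10 higher and 1 lower than post-mitotic cells (35.6% of all genes called; 19.6% higher, 16% lower), among the higher ones mt-Nd6 (0.60), mt-Nd5 (0.52), mt-Co1 (0.50) and mt-Atp6, at 0.51 as counted and 0.24 with its copy added. The lower one, mt-Nd3 (-0.48), was not called with its copy added (-0.23). These 11 calls became 5 without replicate 2 and 7 without replicate 3. All post-mitotic and control myoblast DMSO samples sat in outer wells and all untransduced DMSO myotubes in inner ones. With outer wells as a covariate the counts were 5 higher and 2 lower for myotubes against myoblasts, 0 and 7 for post-mitotic cells against myoblasts, and 9 and 0 for myotubes against post-mitotic cells. The control line differs from the other cells also by its transgene and doxycycline, which cannot be told apart from state.

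States were compared by interactions, as the response in myotubes minus that in control myoblasts. For piericidin 9 mRNAs were higher and 0 lower (46.5% of all genes called), led by mt-Nd1 (0.87 ± 0.10) and mt-Nd3 (0.80 ± 0.26, or 0.71 with its copy added); with outer wells as a covariate 5 were higher, without mt- rows in the scaling or with copies left out 4, and on leaving out replicate 2 or replicate 3 there were 4 or 3. For antimycin 6 were higher and 0 lower (47.9%), among them mt-Nd1 (0.94 ± 0.10), mt-Nd4l (1.96 ± 0.54, or 0.62 ± 0.17 with its copy added) and mt-Nd3 (1.03 ± 0.26, or 0.70 ± 0.21); with library totals all 13 were higher. For oligomycin 1 was higher, mt-Co3 (0.28 ± 0.10), and 5 were lower (29%), led by mt-Nd6 (-0.78 ± 0.17) and mt-Nd1 (-0.54 ± 0.10); with library totals the calls were 3, as they were without replicate 2 and without replicate 3. Of all genes, 25.2% were higher and 21.3% lower for piericidin, 25.4% and 22.5% for antimycin, and 15.8% and 13.2% for oligomycin. The antimycin count of 6 mRNAs was near the share of all genes called in either direction. The 3 interactions share both sets of DMSO samples.

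**Figure D5:**
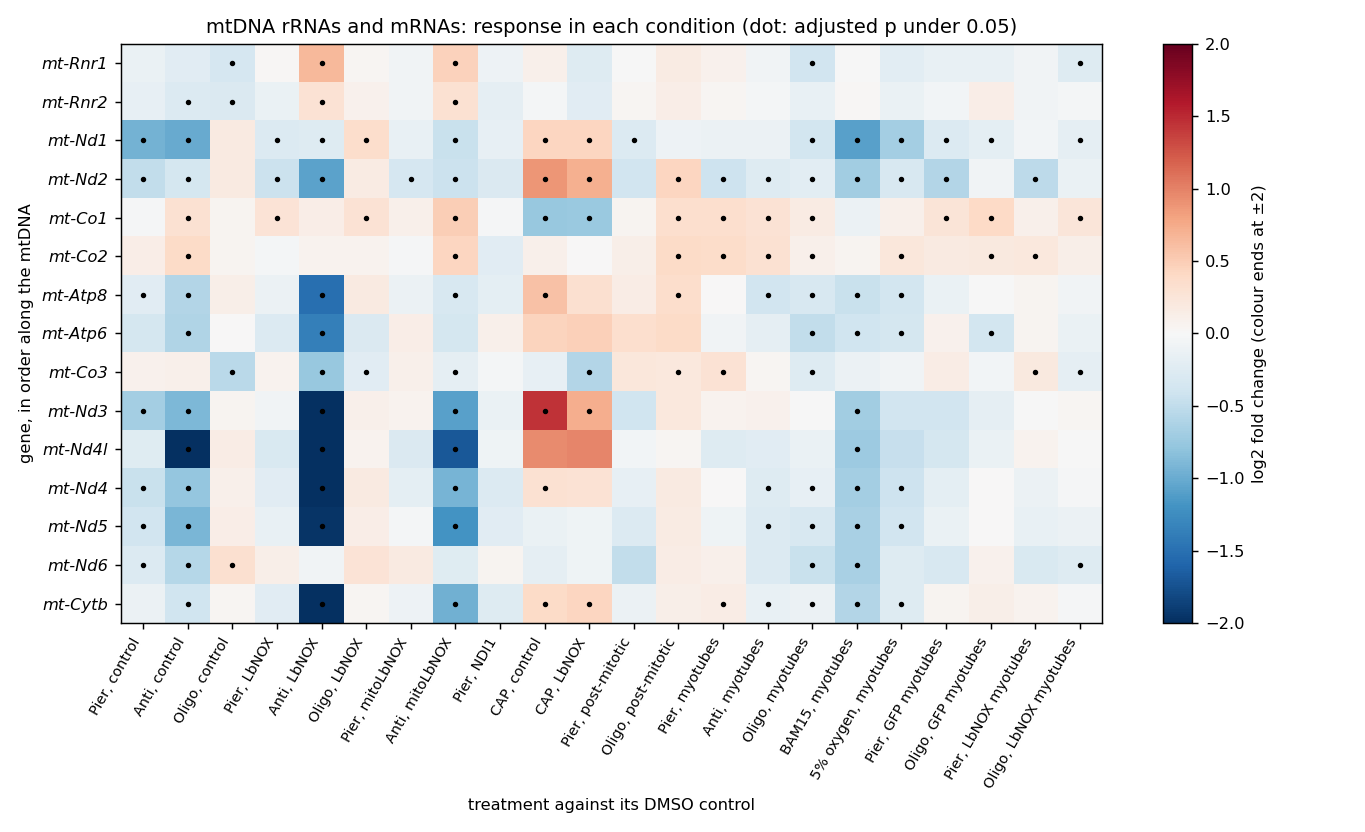
Log2 fold change (colour, ending at ±2) of the 2 rRNAs and 13 mRNAs (rows, in mtDNA order) for 22 treatments against their DMSO control (columns), with a dot where the edgeR adjusted p was under 0.05. The column of antimycin in LbNOX myoblasts is darkest at mt-Nd3, mt-Nd4l, mt-Nd4, mt-Nd5 and mt-Cytb, the chloramphenicol columns have mt-Co1 opposite to mt-Nd2 and mt-Nd3, and the BAM15 column is palest at the rRNAs and mt-Co1 to mt-Co3.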

How the data were processed

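The authors selected poly(A) RNA, prepared Smart-seq2 libraries that do not record strand, ran kallisto 0.44 (bias-corrected) on GRCm38 transcripts plus transgenes, summarised transcripts to genes and summed flow cells. The deposited table holds the authors' estimated counts (expected counts) as whole numbers, unnormalised, for 54146 Ensembl genes and 4 transgenes. All 96 columns were mapped to samples through the sample labels, which also give condition and replicate number. Of 87 pairs of replicates 0 were identical.

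Genes with 16 or more counts in each replicate of some condition were kept within each of 6 fits (myoblasts, chloramphenicol, myotubes, transduced myotubes, post-mitotic cells and cell states). The 47 comparisons were tested with edgeR 4.0.16 (quasi-likelihood F test, TMM, R 4.3.3) and p-values were adjusted by Benjamini-Hochberg over every gene in a comparison, with a threshold of 0.05. Each standard error was derived from the fold change and its F statistic (log2 fold change over the root of F, unsigned), and CPM were scaled with TMM library sizes. Higher, lower, rose and fell refer to calls at this threshold. The scripts were tested on simulated counts. Alternatives were DESeq2 1.42.0, other scalings, no count filter, each comparison fitted alone, outer wells as a covariate, the replicate number as a block, leaving out replicates, and the nuclear copies left out or (chosen after seeing the data) added. Gene positions and sequences come from the GRCm38 annotation and transcripts; near-identical copies had at least 99% identity over at least 80% of the copy. Wells were read from a position code in the labels.

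By the naming rule every mt- mRNA and rRNA could be named in any comparison, tRNAs where counted, and of the nuclear mtDNA expression genes up to 4 called genes with the largest changes; members not named singly are in the counts. The members and gene lists were chosen with earlier results of these data known. At these totals, genes near 16 counts carry wide errors, which for mt-Nd4l and the tRNAs is the limiting factor.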

Additional observations from a re-analysis of the deposited data

Results flagged for a closer look

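Responses of mRNAs that differed between cell lines or states, each tested as an interaction in edgeR (adjusted p under 0.05), were as follows. The antimycin response differed between LbNOX and control myoblasts for 11 of 13 mRNAs (51.5% of all genes called). Between mitoLbNOX and control myoblasts it differed for 3 (31.7%). The piericidin response differed from control myoblasts for 2 mRNAs in LbNOX (44.3% of all genes called), 4 in mitoLbNOX (42.8%) and 2 in NDI1 myoblasts (42.7%). For oligomycin in LbNOX myoblasts it was 1, mt-Co3 (7.98%). Between myotubes and control myoblasts the piericidin response differed for 9 mRNAs (46.5%), the antimycin response for 6 (47.9%) and the oligomycin response for 6 (29%). The counts of antimycin in mitoLbNOX and of piericidin in the transgene lines lay below the share of all genes. Those of oligomycin in LbNOX myoblasts and of antimycin between states lay near it. The lines and states share the control samples, and mt-Nd1 differed in all of these comparisons other than oligomycin in LbNOX myoblasts.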

How the results depend on the processing

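Of 47 counts of called mRNAs, all stayed within 1.5 times the count reported with DESeq2's size factors, and 3 moved with DESeq2 (with or without independent filtering), 2 without mt- rows in the scaling, 10 with library totals, 17 with no count filter, 2 with copies added, 1 with copies left out, 6 with each comparison fitted alone and 5 with outer wells as a covariate, which could not be fitted for post-mitotic cells. Antimycin in LbNOX myoblasts, BAM15 and the antimycin interaction of LbNOX stayed within that margin under each of these. The cause was not tested.

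The counts were, with DESeq2, piericidin by NDI1 1, chloramphenicol by LbNOX 2 and piericidin in post-mitotic cells 5. Without mt- rows they were piericidin by NDI1 1 and piericidin by state 4, and with copies left out piericidin by state 4. With library totals they were piericidin control 11, oligomycin control 1, piericidin by LbNOX 6, by mitoLbNOX 10 and by NDI1 7, antimycin by mitoLbNOX 5, LbNOX at baseline 2, piericidin in post-mitotic cells 2, and by state antimycin 13 and oligomycin 3. With no filter they were piericidin in LbNOX 6, mitoLbNOX 5 and NDI1 6, piericidin by LbNOX 5 and by NDI1 4, oligomycin by LbNOX 4, antimycin by mitoLbNOX 6, baselines of LbNOX 10, mitoLbNOX 3 and NDI1 11, chloramphenicol in LbNOX 10 and by LbNOX 2, piericidin in GFP 7 and LbNOX myotubes 6, their interactions 2 and 1, and piericidin in post-mitotic cells 7. With copies added oligomycin in LbNOX and piericidin by LbNOX were 5 each, and mt-Atp6 with oligomycin in GFP myotubes reversed to 0.12. Fitted alone they were piericidin and oligomycin in LbNOX 5 each, piericidin by mitoLbNOX 2 and by NDI1 1, in GFP myotubes 0 and in post-mitotic cells 2. With outer wells they were oligomycin control 4, piericidin mitoLbNOX 0, chloramphenicol by LbNOX 2, oligomycin with piericidin 5 and piericidin by state 5.

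The replicate block moved 6 counts, each upward. They were oligomycin control 4, piericidin LbNOX 5 and mitoLbNOX 2, piericidin by LbNOX 4, LbNOX at baseline 7 and piericidin in post-mitotic cells 4. Of 301 calls of mtDNA genes 297 stayed called under it. Samples with the same number had a mean correlation of -0.041 to 0.054 over the fits. It was above that of samples with other numbers in the myoblast, post-mitotic and state fits and below it in the other fits. Such means cannot exclude a pairing of samples by number.

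For conditions with 3 samples, leaving out replicates gave these ranges where a count moved. The LbNOX baseline had 0 to 2. In myoblasts they were piericidin LbNOX 0 to 3 and mitoLbNOX 0 to 1, and oligomycin control 1 to 4 and LbNOX 1 to 3. Interactions were piericidin by LbNOX 1 to 3 and by mitoLbNOX 1 to 3, oligomycin by LbNOX 0 to 1, and by state piericidin 3 to 6 and oligomycin 3 to 5. Myotubes had piericidin 3 to 4, antimycin 3 to 8, oligomycin 6 to 10, with piericidin 4 to 6, and in 5% oxygen against 5% oxygen 4 to 7. Transduced with LbNOX, they had piericidin 1 to 3 and oligomycin 2 to 4. Post-mitotic cells had piericidin 0 and oligomycin 2 to 8, and myotubes against post-mitotic cells 5 to 9. Groups with 2 samples (chloramphenicol and its DMSO, NDI1, GFP) would be left with 1, so their counts cannot be checked in that way.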

Other observations

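The nuclear OXPHOS subunits were read beside the mtDNA mRNAs in further conditions. With oligomycin in untransduced myotubes 24 of 80 were lower and 2 higher, where 16.4% of all genes were lower and 16.9% higher, and 9 mtDNA mRNAs were lower and 2 higher. In myotubes against control myoblasts in DMSO 44 of 80 were higher and 5 lower, where 35.7% of all genes were higher and 33.7% lower, and the mtDNA mRNAs were 4 in each direction. With chloramphenicol in control myoblasts 11 of 78 were higher and 1 lower, where 4.83% of all genes were higher and 3.62% lower, and 6 mtDNA mRNAs were higher and 1 lower. Of the genes for mtDNA expression, oligomycin left 37 higher and 10 lower of 73 in control myoblasts, where 24.5% of all genes were higher and 26.3% lower. In myotubes it left 31 higher and 4 lower of 71, where 16.9% of all genes were higher and 16.4% lower. The largest change in control myoblasts was that of Slc25a33 (2.31 ± 0.17).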
